A study of Mus musculus with 2 samples.

Results

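Integrins and laminins were described as 1 group of 36 genes out of the 22711 listed for each line. The rule that chose them reads the symbol (Itga, Itgb, Lama, Lamb or Lamc followed by a number or, for integrin alpha subunits, also by a letter) and uses no level. They comprised 18 integrin alpha subunits, 8 integrin beta subunits and 10 laminin chains. RNA came from cultured immortal mouse embryonic fibroblasts (MEFs, connective tissue cells of the embryo grown on gelatin-coated dishes), all of them hybrids between the strains C57BL/6N (B6) and PWK/PhJ (PWK). In the line B6-Xi, whose strain label reads PWK/PhJ X C57BL/6N, the B6 copy of the X chromosome is the inactive one, and in the line PWK-Xi, labelled C57BL/6N X PWK/PhJ, it is the PWK copy. Each line was sequenced once, so no difference below has a replicate check or a test. The labels do not say whether a line is a single clone. No member lies on the X chromosome, and the question here was how the matrix receptors and matrix chains of both hybrids compared in level and in allele.

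Integrins are cell surface receptors made of 1 alpha and 1 beta subunit, and the pair decides which matrix protein is bound. Laminins are the cross-shaped trimers of basement membranes, each built of an alpha, a beta and a gamma chain. Fibroblasts attach to fibronectin, vitronectin and collagen largely through integrins that contain the beta1 subunit or the alpha v subunit, and they also make some laminin chains.

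Levels are given as summed FPKM, the total of the B6 and PWK allele values of a gene, scaled by transcript length and library size. How reads were assigned to alleles is not known, so the sum may miss reads, and by a different part for each gene. Ratios and rankings between genes are therefore ratios of these values and may not be those of transcripts. The B6 share is the B6 part of that sum in percent. A difference between the lines is log2((PWK-Xi + 1)/(B6-Xi + 1)), with a pseudocount of 1 FPKM, which understates the change of low genes. FPKM are not counts. With the depth of each gene unknown, no counting interval can be given. There were 10127 genes above 0 in B6-Xi against 12907 in PWK-Xi. Of the fibroblast markers checked, 8 of 10 reached 1 FPKM in B6-Xi and 9 of 10 in PWK-Xi. Their levels differed between the lines. Of the 9 that reached 5 FPKM in either line, 4 were 2-fold or more higher in PWK-Xi (Dcn, Pdgfra, Pdgfrb and Lum). A further 2 were lower by as much (S100a4 and Col3a1), beside 17.8% higher and 5.83% lower over all genes. Vim, a defining fibroblast filament gene, was listed at 0 in both lines, so a listed 0 can be a failed estimate. In these bulk RNA samples, fewer cells of a type and less RNA per cell cannot be told apart.

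Of the 36 members, 12 reached 1 FPKM in at least 1 line, 16 were above 0 but under 1 FPKM in both lines, and 8 were listed at 0 in both, as were 42.2% of all genes. The members above 0 numbered 21 in B6-Xi against 27 in PWK-Xi, against 44.6% and 56.8% of all genes. Only 6 members reached the 5 FPKM in either line asked for a count of differences, as did 24.2% of all genes. The 1 FPKM in both lines asked for a share was reached by 9 members and by 33.9% of all genes. Both sets are therefore the abundant members and not the whole families.

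The promoters of 3 members are shown because Itgb5 and Lamb1 were, of the members that reached 5 FPKM, those 2-fold or more higher in PWK-Xi, while Itgb1, the most abundant member, had nearly the same level in both lines. The sequences are RefSeq's, of the assembly GRCm38.p6, from 250 bases before to 50 bases after the annotated start, and 23 of the 36 members had an entry. They are of the B6-type reference genome and of a later build than the mm9 named for the files. Capitals mark the GC box, searched as GGGCGG on both strands.
Itgb1, chr8:128685404-128685703, + strand: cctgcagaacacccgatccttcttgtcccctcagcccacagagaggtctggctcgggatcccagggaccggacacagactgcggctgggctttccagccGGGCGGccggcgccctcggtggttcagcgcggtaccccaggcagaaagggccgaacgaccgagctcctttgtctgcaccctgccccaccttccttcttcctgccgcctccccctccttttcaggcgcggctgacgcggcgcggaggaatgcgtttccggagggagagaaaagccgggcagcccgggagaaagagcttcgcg
Itgb5, chr16:33829415-33829714, + strand: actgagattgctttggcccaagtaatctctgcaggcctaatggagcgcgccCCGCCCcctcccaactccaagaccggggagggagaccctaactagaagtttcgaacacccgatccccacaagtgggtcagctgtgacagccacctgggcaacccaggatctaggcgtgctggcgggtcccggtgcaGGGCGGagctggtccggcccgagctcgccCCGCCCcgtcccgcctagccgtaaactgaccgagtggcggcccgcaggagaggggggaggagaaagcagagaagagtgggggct
Lamb1, chr12:31265043-31265342, + strand: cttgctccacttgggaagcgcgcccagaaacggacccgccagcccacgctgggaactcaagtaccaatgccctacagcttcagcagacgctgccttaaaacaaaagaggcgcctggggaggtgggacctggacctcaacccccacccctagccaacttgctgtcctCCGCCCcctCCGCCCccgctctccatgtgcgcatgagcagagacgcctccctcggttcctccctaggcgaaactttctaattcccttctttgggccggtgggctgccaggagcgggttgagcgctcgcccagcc
The GC box had 1 match in the Itgb1 window, 3 in that of Itgb5 and 2 in that of Lamb1, and 35.7% of all 32851 promoter windows of this length held at least 1. The CCAAT box, searched as CCAAT on both strands, was found once, in Lamb1, and in 37.4% of all windows. The TATA box, searched as TATAAA on both strands, was in none of the 3 windows and in 13.6% of all. The windows held 27, 20 and 18 CG pairs, against a median of 7 over all windows. These matches describe the letters only.

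Among the beta subunits, beta1 dominated and beta5 differed between the lines. Itgb1, whose product pairs with many alpha subunits to form the main fibronectin, collagen and laminin receptors, had 45.5 FPKM in B6-Xi against 47.6 FPKM in PWK-Xi. It was the most abundant member in both lines, and its level stood at or above 96.7% and 96.5% of all listed genes. The difference was 0.06 on the log2 scale and changed sign, to -0.13, once values were set relative to the median gene, so no direction is given for it. By allele it had 21.1 FPKM from B6 and 24.5 FPKM from PWK in B6-Xi, and 20.3 and 27.3 FPKM in PWK-Xi.

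Itgb5, which pairs with alpha v into a vitronectin receptor, had 15.7 FPKM in B6-Xi against 34.1 FPKM in PWK-Xi, 2.17-fold higher in PWK-Xi (log2 difference 1.07). Both alleles were higher there: the B6 allele had 5.14 and 13.6 FPKM, and the PWK allele 10.5 and 20.5 FPKM. Its PWK allele was the higher one in each line. Itgb5 was second among the members in both lines, and its ratio to Itgb1 was 0.345 in B6-Xi against 0.716 in PWK-Xi. The 20 measured genes around it on chromosome 16 had a median log2 difference of 0.45, in the same direction and smaller. Relative to the median of all genes the value for Itgb5 was 0.88 and no longer reached 2-fold.

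Itgb3, whose product also pairs with alpha v and is part of a vitronectin receptor and of the platelet fibrinogen receptor, had 4.004 FPKM in B6-Xi against 2.04 FPKM in PWK-Xi (log2 difference -0.72). The PWK allele gave 3.17 and 1.48 FPKM of these. Itgb5 and Itgb3 thus differed in opposite directions, and the ratio of Itgb5 to Itgb3 was 3.92 in B6-Xi against 16.7 in PWK-Xi. Itgb6, which serves epithelia, was listed at 0 in B6-Xi, with 0.107 FPKM in PWK-Xi, and Itgb8 was listed at 0 in both lines.

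All 8 beta subunits together had 65.5 FPKM in B6-Xi against 84.4 FPKM in PWK-Xi, and without Itgb5 they had 49.8 and 50.3 FPKM. Itgb1 made up 69.5% and 56.4% of the beta sum, and Itgb5 24.0% and 40.4%.

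**Figure D1:**
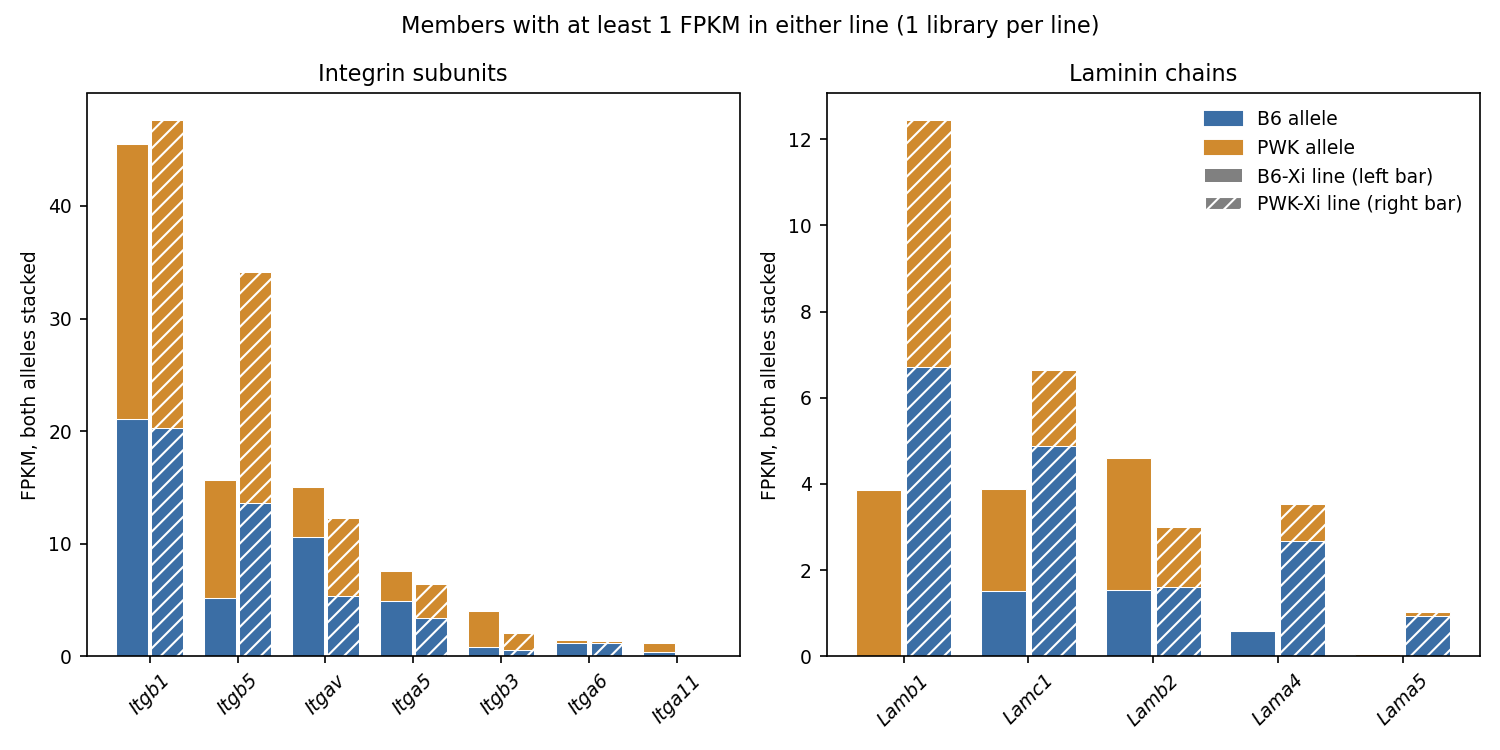
Summed FPKM (vertical axis, linear, different range in each panel) of the 12 members with at least 1 FPKM in either line, with the B6 and PWK alleles stacked. Left bars are B6-Xi and hatched right bars PWK-Xi, 1 library each. Itgb1 stands at 45.5 and 47.6 FPKM, Itgb5 at 15.7 and 34.1 FPKM, and the Lamb1 bar of B6-Xi has no B6 part.

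Among the alpha subunits, those that recognise the RGD sequence of fibronectin and vitronectin held most of the signal, with 80.5% of the alpha sum in B6-Xi against 83.7% in PWK-Xi. Itgav, the alpha v subunit that pairs with beta1, beta3, beta5, beta6 and beta8, had 15.0 FPKM in B6-Xi against 12.3 FPKM in PWK-Xi (log2 difference -0.27). Its alleles differed in opposite directions. The B6 allele had 10.6 FPKM in B6-Xi against 5.38 FPKM in PWK-Xi, while the PWK allele had 4.43 and 6.87 FPKM. Itga5, the alpha subunit of the classical fibronectin receptor, had 7.56 FPKM in B6-Xi against 6.39 FPKM in PWK-Xi (log2 difference -0.21). Its B6 allele had 4.93 and 3.36 FPKM and its PWK allele 2.63 and 3.03 FPKM. The Itgav to Itga5 ratio was close in both lines, at 1.98 and 1.92. Itga8, another RGD-binding subunit, stayed at 0.656 and 0.191 FPKM.

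Laminin-binding alpha subunits were low. Itga6, which forms laminin receptors with beta1 or beta4, had 1.45 FPKM in B6-Xi against 1.35 FPKM in PWK-Xi. Its B6 allele was the higher one in each line, with 1.16 against 0.289 FPKM in B6-Xi and 1.16 against 0.193 FPKM in PWK-Xi. Itga3, also a laminin receptor subunit, had 0.691 and 0.583 FPKM, and Itga7, the laminin receptor subunit of muscle, was listed at 0 and had 0.386 FPKM. Itgb4, the hemidesmosome subunit that pairs only with alpha6, was listed at 0 in B6-Xi, with 0.0734 FPKM in PWK-Xi.

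Of the collagen-binding alpha subunits, Itga11, a fibroblast receptor for fibrillar collagen, had 1.16 FPKM in B6-Xi against 0.0723 FPKM in PWK-Xi (log2 difference -1.01). With the pseudocount of 1 FPKM it was the only member past 2-fold in that direction, and it lay under the 5 FPKM asked for a count. As plain ratios with no pseudocount, Itga2b, Itga8 and Itga4 were also lower in PWK-Xi, by 4.60, 3.44 and 3.31 times, all at levels under 1 FPKM in both lines. Itga1 had 0.601 and 0.721 FPKM. Itga2 was at 0.0664 FPKM and listed at 0, and Itga10 was listed at 0 and at 0.0720 FPKM. Itga4 and Itga9, related subunits that bind fibronectin or tenascin as well as cell surface ligands, had 0.898 and 0.271 FPKM, and 0.0228 and 0.0235 FPKM. The alpha subunits together had 28.8 FPKM in B6-Xi against 22.5 FPKM in PWK-Xi, so the beta sum was 2.27 times the alpha sum in B6-Xi and 3.75 times in PWK-Xi.

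Subunits of blood cells were at or near 0. Itgad, Itgal, Itgam, Itgax and their partner Itgb2, all leukocyte integrins, were listed at 0 in both lines, and Itgae reached 0.0221 FPKM in PWK-Xi alone. Itgb7, a leukocyte subunit, had 0.274 and 0.474 FPKM, and Itga2b, the platelet alpha subunit, 0.724 and 0.158 FPKM. The 7 leukocyte markers summed to 1.56 FPKM in B6-Xi against 4.81 FPKM in PWK-Xi, with Cd52, Coro1a and Lyz2 listed at 0 in both lines. The others were higher in PWK-Xi. Cd68 had 1.39 and 3.25 FPKM and Csf1r 0.169 and 0.251 FPKM. Laptm5 and Ptprc were listed at 0 in B6-Xi, with 1.26 and 0.0500 FPKM in PWK-Xi. The 4 platelet markers summed to 8.73 and 7.32 FPKM, most of it Gp1bb (7.27 and 6.92 FPKM). Ppbp had 1.46 and 0.401 FPKM, lower in PWK-Xi as Itga2b was, and the defining Pf4 and Gp9 were listed at 0 in both lines.

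Laminin chains were less abundant than integrins and higher in PWK-Xi when summed, at 13.1 FPKM in B6-Xi against 27.1 FPKM in PWK-Xi. Integrins summed to 94.3 and 106.9 FPKM. Without Lamb1 the laminin sums were 9.19 and 14.6 FPKM. Markers of pluripotent cells also differed between the lines, and with 1 library per line no link to the laminins can be read from that. Of the 4, 2 reached 1 FPKM in PWK-Xi and none in B6-Xi, where all 4 were listed at 0. Their sum was 150.4 FPKM in PWK-Xi, made of Dppa5a (134.9 FPKM) and Pou5f1 (15.1 FPKM), while Nanog had 0.360 FPKM and Zfp42 was listed at 0 in both lines. Epithelial markers summed to 2.68 FPKM in B6-Xi against 2.08 FPKM in PWK-Xi, with Epcam, Krt5 and Krt14 listed at 0 in both. The sum of B6-Xi was all Krt19, which had 0.782 FPKM in PWK-Xi. Krt8, Krt18, Cldn4 and Cdh1 went the other way, listed at 0 in B6-Xi, with 0.461, 0.379, 0.263 and 0.191 FPKM in PWK-Xi. The part of other cell types in the laminin difference was not tested.

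Among the beta chains, Lamb1, the beta chain of most fibroblast and embryonic laminins, had 3.86 FPKM in B6-Xi against 12.4 FPKM in PWK-Xi, 3.22-fold higher in PWK-Xi (log2 difference 1.47). In B6-Xi all of it came from the PWK allele, with the B6 allele listed at 0. In PWK-Xi the B6 allele gave 6.72 FPKM and the PWK allele 5.72 FPKM. The PWK allele alone was 1.48-fold higher in PWK-Xi, inside 2-fold. Lamb2, the beta chain of mature muscle, nerve and kidney laminins, had 4.59 FPKM in B6-Xi against 3.003 FPKM in PWK-Xi (log2 difference -0.48). Its B6 allele was at 1.53 and 1.60 FPKM, and its PWK allele at 3.06 and 1.41 FPKM. The ratio of Lamb1 to Lamb2 was 0.841 in B6-Xi against 4.14 in PWK-Xi, so the beta chain with the higher level was not the same in both lines. Lamb3, an epidermal chain, was listed at 0 in both.

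Lamc1, the gamma chain shared by most laminins, had 3.88 FPKM in B6-Xi against 6.65 FPKM in PWK-Xi, 1.72-fold higher (log2 difference 0.65). Its B6 allele was 3.25-fold higher in PWK-Xi, at 1.503 and 4.89 FPKM, while its PWK allele was lower there, at 2.37 and 1.76 FPKM. Lamc3 was listed at 0 in both lines.

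Alpha chains had the lowest summed FPKM of the laminin classes in both lines. Lama4, the alpha chain of mesenchymal and vascular laminins, had 0.579 FPKM in B6-Xi against 3.54 FPKM in PWK-Xi (log2 difference 1.52). It came from the B6 allele alone in B6-Xi, and from B6 (2.68 FPKM) and PWK (0.862 FPKM) in PWK-Xi. Lama5, the broadly expressed alpha chain of mature basement membranes, had 0.0549 FPKM in B6-Xi against 1.01 FPKM in PWK-Xi (log2 difference 0.93). Lama2, the chain of muscle and nerve basement membranes, had 0.0896 and 0.304 FPKM. Lama1, an early embryonic chain, and Lama3, an epithelial chain, reached 0.119 and 0.0153 FPKM in PWK-Xi and were listed at 0 in the other line. All 5 alpha chains were thus above 0 in PWK-Xi, where 56.8% of all genes were, and 3 of 5 in B6-Xi, where 44.6% were. None of the 5 reached 1 FPKM in B6-Xi.

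Since each trimer takes 1 chain of each class, the sums of the alpha and beta chains were set beside Lamc1. These are ratios of allele-assigned FPKM between genes, and the amounts of chains or trimers were not measured. In B6-Xi these had 0.724, 8.46 and 3.88 FPKM, and in PWK-Xi 4.99, 15.4 and 6.65 FPKM. Alpha chains made up 5.54% of the laminin sum in B6-Xi against 18.4% in PWK-Xi. The ratio of the beta sum to Lamc1 was similar in both lines, at 2.18 and 2.32, whereas that of the alpha sum to Lamc1 was 0.187 and 0.751.

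Counted against all genes, 2 of the 6 members with at least 5 FPKM in either line, Itgb5 and Lamb1, were higher in PWK-Xi by 2-fold or more, and none was lower by as much. The corresponding shares of all 5490 genes were 17.8% and 5.83%. With so few members, their count is not set apart from that background. Lamb1 and Lamc1 passed the filter only through PWK-Xi, where they were the higher, and Lamb2, lower in PWK-Xi, lay just under it at 4.59 FPKM, so the filter bears on the direction of the laminins counted. Relative to the median of all genes (0.19 on the log2 scale, over 5241 genes above 0 in both lines) Lamb1 alone remained, and 14.0% of all genes were higher and 8.67% lower. When the filter was lowered to 1 FPKM, Lama4 joined the higher members and Itga11 was the single lower one among 12. Of all genes, 18.1% were then higher and 4.84% lower.

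**Figure D2:**
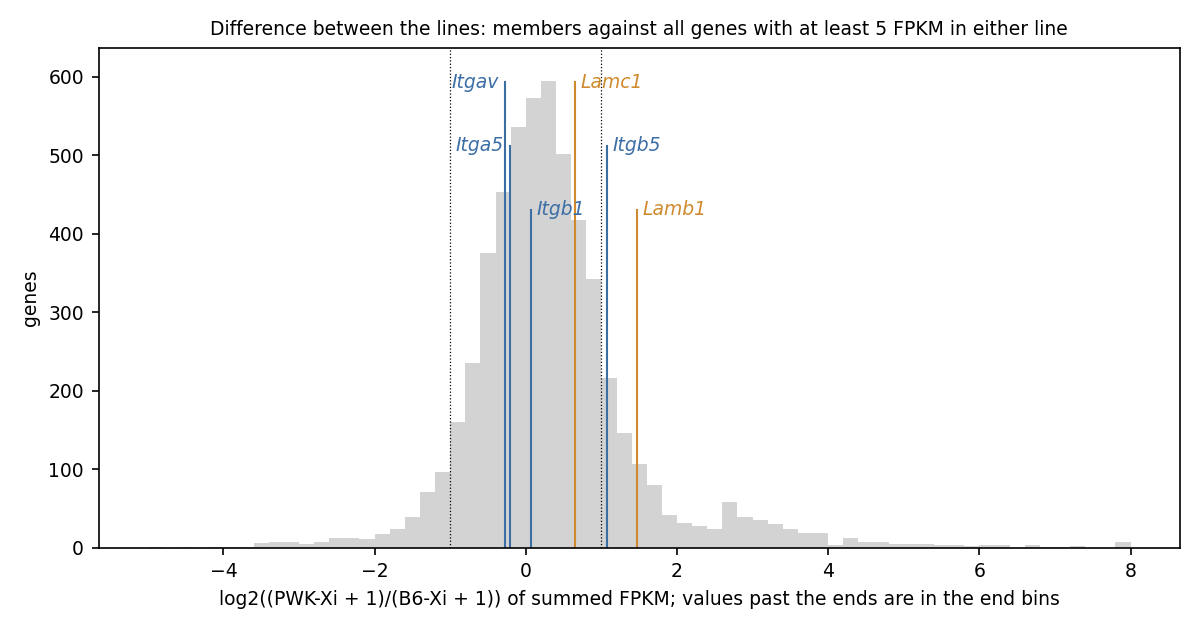
Histogram of the log2 difference between the lines (horizontal axis) over the 5490 genes that reached 5 FPKM in either line (vertical axis, number of genes), with the 6 members that passed the same filter as vertical lines whose height has no meaning. Dotted lines mark 2-fold. Itgb5 (1.07) and Lamb1 (1.47) lie past it, and Itgav, Itga5, Itgb1 and Lamc1 lie within it.

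The alleles of the members departed from equal shares in different ways in each line. Among the 9 members with at least 1 FPKM in both lines, B6 shares ran from 0% to 80% in B6-Xi, with a median of 38.8%, and from 27.7% to 85.7% in PWK-Xi, with a median of 52.6%. All 7689 genes with the same minimum had medians of 50.0% and 53.2%. A share under 30% or over 70% was found for 4 of the 9 in B6-Xi (Lamb1, Itgb3, Itgav and Itga6), against 35.1% of all genes, and for 3 of the 9 in PWK-Xi (Itgb3, Lamc1 and Itga6), against 18.7%. Shares moved in coarse steps: 3 of the 9 shares in B6-Xi and 1 in PWK-Xi were, within 0.001 percentage points, a simple fraction (denominator no higher than 10), as did 45.5% and 8.71% of all genes. The shares of Itga6, Lamb1 and Lamb2 in B6-Xi are such fractions, and so is that of Itga6 in PWK-Xi. Fractions with a denominator over 10 were not counted, so the other shares may rest on few reads as well. Shares and their distances below are therefore not finely resolved.

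Each share was set beside the median of up to 10 measured genes on either side of the gene on its chromosome. Lamb1 on chromosome 12 had a B6 share of 0% in B6-Xi, where its 20 neighbours had a median of 0% and a maximum of 4.35%. All 234 measured genes of chromosome 12 had a median of 0% there too, so the absent B6 part was not particular to Lamb1 or its surroundings. In PWK-Xi Lamb1 had 54.1%, and its neighbours and its chromosome each had a median of 52.5%. Lamc1 on chromosome 1 had 38.8% in B6-Xi with its neighbours at 48.2%, and 73.5% in PWK-Xi with its neighbours at 70.9%. The whole of chromosome 1 had medians of 51.4% and 70.2%. Itgb5 on chromosome 16 had 32.8% and 39.8%, its neighbours medians of 31.6% and 40.1%, and the whole chromosome 33.3% and 41.1%. Those neighbours were widely spread, from 0% to 100% in B6-Xi and from 0% to 89.4% in PWK-Xi. Itgb5 and Lamb1 thus lay within 1.53 percentage points of the median of their neighbours in both lines. Lamc1 lay within 2.60 points in PWK-Xi and 9.40 points below its near-even neighbours in B6-Xi.

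Itgav on chromosome 2 had 70.5% in B6-Xi and 43.9% in PWK-Xi, and its neighbours 62.3% and 51.3%. Lamb2 on chromosome 9 had 33.3% and 53.2%, and its neighbours 37.5% and 51.9%, a distance of 4.17 and 1.30 points. Itga5 on chromosome 15 had 65.2% and 52.6%, beside 60.6% and 59.3% for its 10 measured neighbours, all on the same side of it. Itgb1 on chromosome 8 lay below the median of its 11 measured neighbours in each line, at 46.3% against 59.6% and 42.6% against 53.6%. Nearly all of these neighbours lie on the same side of it.

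Itga6 and Itgb3 lay farthest from the median of their neighbours, each on the same side in both lines. Itga6, on chromosome 2, had a B6 share of 80% in B6-Xi and 85.7% in PWK-Xi, with neighbours at 62.5% and 51.2%. Itgb3 on chromosome 11 had 20.8% and 27.7%, with neighbours at 36.9% and 48.9%. In B6-Xi both lay inside the range of their neighbours, 0% to 96.4% for Itga6 and 0% to 100% for Itgb3. In PWK-Xi both lay outside it, at 0% to 73.8% and 35.4% to 91.5%. Both genes had low levels, between 1.35 and 4.004 FPKM, and the shares of Itga6 were simple fractions in both lines. Over the 9 members the median distance from the neighbours was 8.15 percentage points in B6-Xi against 6.68 in PWK-Xi, beside 9.65 and 6.59 over all 7677 genes measured the same way. In both lines 6 of the 9 lay within 10 points, as did 51.6% and 65.6% of all genes.

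**Figure D3:**
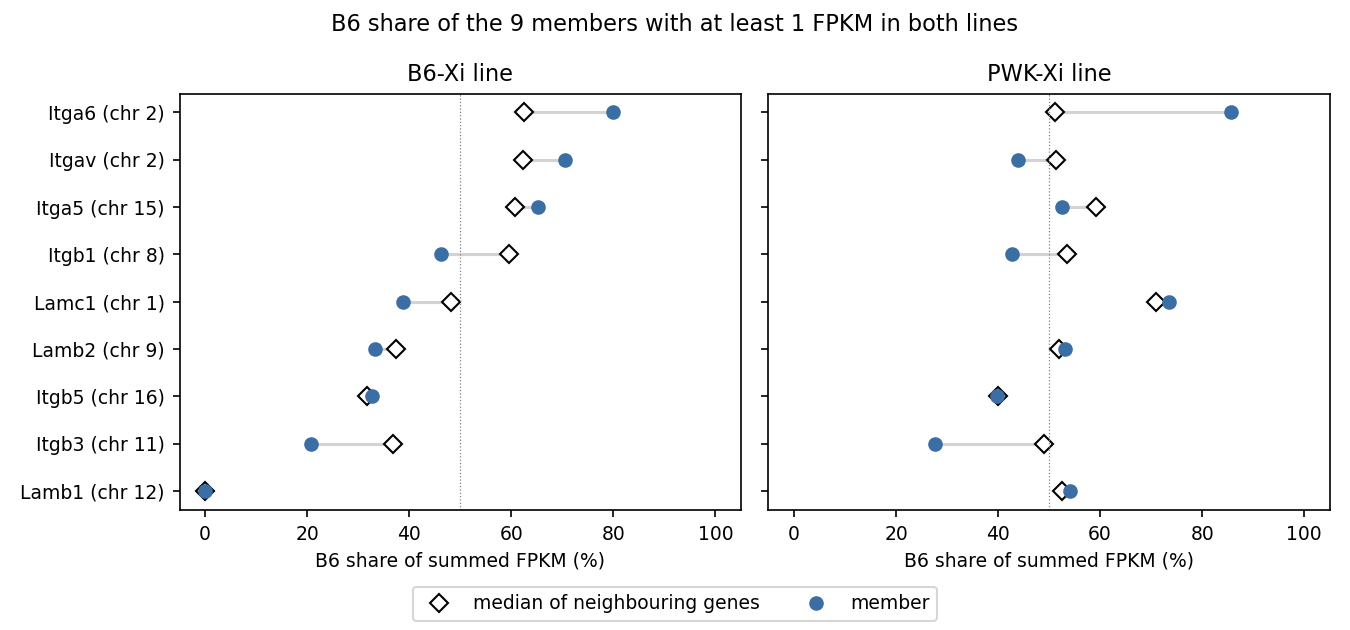
B6 share in percent (horizontal axis) of the 9 members with at least 1 FPKM in both lines (filled circles), with the median of up to 10 measured genes on either side (open diamonds), for B6-Xi on the left and PWK-Xi on the right, 1 library each. Lamb1 and its neighbours lie at 0% on the left, and Lamb1 lies at 54.1% and its neighbours at 52.5% on the right. Itga6, Itgb3 and Itgb1 each stay on the same side of their neighbours' median in both lines.

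Between the lines the B6 share differed by at least 20 percentage points for 3 of the 9 members, Lamb1, Lamc1 and Itgav, against 36.7% of all genes. It was higher in PWK-Xi for both laminins and lower there for Itgav. Total levels were set beside the same neighbours. The neighbours of Lamb1 had a median log2 difference of 0.91 and Lamb1 itself 1.47. Those of Lamc1 had 0.66 and Lamc1 0.65. For Itgav the neighbours had 0.19 and the gene -0.27. Of the genes of chromosome 12 with at least 5 FPKM in either line, 51.2% of 170 were at least 2-fold higher in PWK-Xi, as Lamb1 was. On chromosome 16, which carries Itgb5, it was 21.4% of 196.

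The difference between the lines was also taken for each allele. For the laminin chains that each line held at 1 FPKM or more, the B6-allele and PWK-allele log2 differences were 2.95 and 0.47 for Lamb1, 1.23 and -0.29 for Lamc1, and 0.04 and -0.76 for Lamb2. Lama4 and Lama5 reached 1 FPKM only in PWK-Xi, where they were the higher. Lama5 had 0.96 and 0.02. Lama4 had 1.22 and 0.90, an order that rests on the pseudocount: its PWK allele went from a listed 0 to 0.862 FPKM while its B6 allele was 4.63-fold higher, and its B6 share was 100% in B6-Xi against 75.7% in PWK-Xi. Among the integrins with at least 1 FPKM in either line, Itgb5 was the only one of the 7 integrins with both alleles higher in PWK-Xi, at 1.25 and 0.90. Itgav had -0.86 and 0.54. These genes do not lie in the same surroundings, and the allele values of 0 of Lama4 and Lama5 in B6-Xi rest on low levels.

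**Figure D4:**
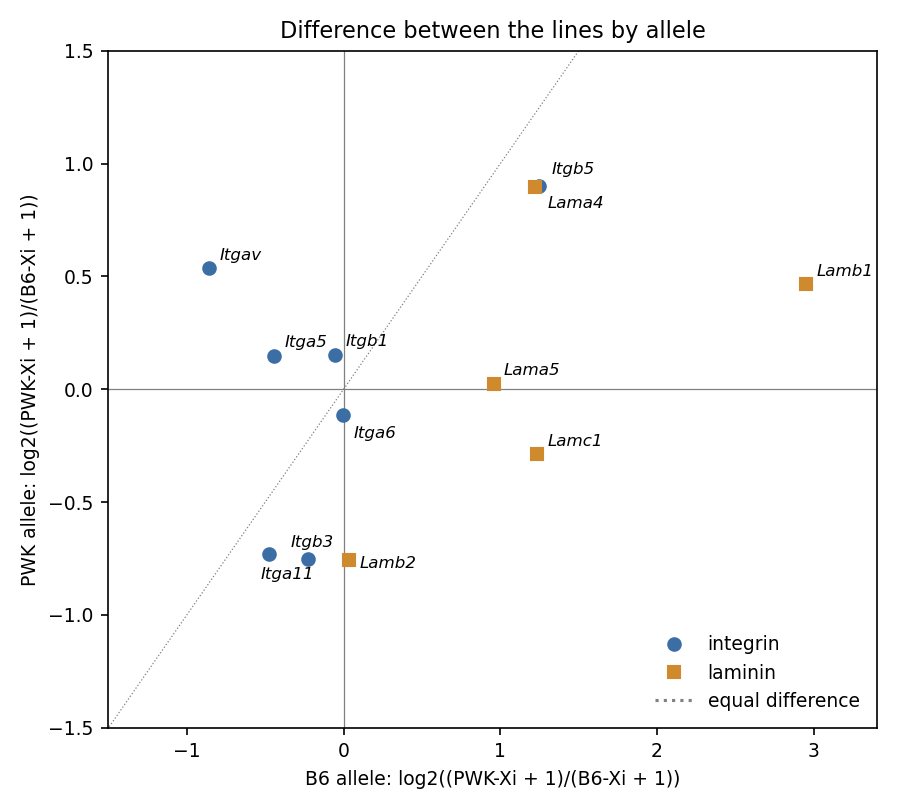
Log2 difference between the lines, PWK-Xi over B6-Xi with a pseudocount of 1 FPKM, of the B6 allele (horizontal axis) and of the PWK allele (vertical axis) for the 12 members with at least 1 FPKM in either line, with integrins as circles and laminins as squares. Lamb1 and Lamc1 lie farthest to the right of the dotted line of equal difference, and Itgav, Itga5 and Itgb1 lie to its left.

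The partners of these proteins were read from 4 lists. Over the 5490 genes that reached 5 FPKM in B6-Xi or PWK-Xi, 17.8% were 2-fold or more higher in PWK-Xi and 5.83% lower by as much. A gene that reached 5 FPKM in 1 line alone was counted through the line where it was high, so the counts below are descriptions. Genes listed at 0 in B6-Xi were counted as higher too, though a listed 0 can be a failed estimate. Matrix ligands of integrins other than collagens and laminins held 17 genes. Of these 12 reached 5 FPKM in either line, 6 of them 2-fold or more higher and 1 lower by as much, beside the 17.8% and 5.83%, with a median log2 difference of 0.999 beside 0.23 over all genes. Tnc, tenascin C, had 4.50 FPKM in B6-Xi, none of it from B6, and 119.9 FPKM in PWK-Xi. Spp1, osteopontin and a ligand of alpha v integrins, had 119.1 and 614.0 FPKM. Fbln5, an elastic fibre protein with an RGD site, had 6.99 and 22.0 FPKM, and like Lamb1 it lies on chromosome 12 and had a B6 share of 0% in B6-Xi. Cyr61, Fbn1 and Icam1 completed the 6, and Tnc, Fbn1 and Icam1 were counted through PWK-Xi alone, with 4.50, 2.93 and 1.53 FPKM in B6-Xi. Thbs1, thrombospondin 1, was the lower one, at 125.9 and 51.8 FPKM.

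Proteins that link integrins to actin held 32 genes, of which 20 reached 5 FPKM in either line. Of these, 4 were lower in PWK-Xi by 2-fold or more, beside 5.83% of all genes, 1 was higher by as much, beside 17.8%, and 15 lay between, with a median log2 difference of -0.27 beside 0.23 over all genes. Vcl, vinculin, had 34.0 FPKM in B6-Xi against 8.96 FPKM in PWK-Xi. The adaptor gene Bcar1 had 16.2 and 4.72 FPKM, the tensin gene Tns3 had 37.1 and 14.8 FPKM, and the X-linked filamin gene Flna had 79.4 and 31.8 FPKM. Vasp, an actin regulator, was listed at 0 in B6-Xi, with 8.15 FPKM in PWK-Xi. Ilk, the integrin-linked kinase gene, had 59.0 and 45.5 FPKM.

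Membrane partners of integrins gave 2 higher genes, 1 lower gene and 9 within 2-fold among 12 of 13 that reached 5 FPKM, beside 17.8% higher and 5.83% lower over all genes. The 2 of 12 are near that background, and the median log2 difference was -0.04 beside 0.23. The tetraspanin gene Tspan4 had 18.4 and 130.7 FPKM and Cd82 had 7.42 and 1.88 FPKM. Cd81, counted as higher, was listed at 0 in B6-Xi, with 103.0 FPKM in PWK-Xi. Cd63, the gene under 5 FPKM, was listed at 0 in both lines. Cd9, a tetraspanin gene too, had 137.9 and 117.1 FPKM.

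Basement membrane partners of laminins differed in both directions. Of 19 genes, 8 reached 5 FPKM, with 2 higher, 1 lower and 5 within 2-fold, beside 17.8% higher and 5.83% lower over all genes. The median log2 difference was -0.23 beside 0.23, and both higher genes were counted through PWK-Xi alone. Nid1, nidogen 1, which joins the laminin gamma1 chain to collagen IV, had 10.5 FPKM in B6-Xi against 19.2 FPKM in PWK-Xi, within 2-fold. Smoc2 had 4.58 and 16.7 FPKM, and Bcam, a receptor for laminin alpha5, was listed at 0 in B6-Xi, with 6.58 FPKM in PWK-Xi. Sparc, a collagen-binding matricellular protein gene, had 579.5 and 252.4 FPKM.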

How the data were processed

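Poly(A) RNA of 2 MEF lines was captured with oligo-dT and sequenced after Smart-seq2, per the labels' protocols. Per the submitters' processing notes, the tools were StringTie 2.1.1, HISAT2 2.2.0 and Trim Galore 0.6.4, and the build was mm9. The sources used here do not give how reads were assigned to alleles or whether strand was kept. The authors deposited FPKM values per gene and allele, 1 file per line per the file headers. Groups came from the sample titles.

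Alleles were summed, and shares, differences and counts were computed as stated in the results, with no test and no p-value. Every member with at least 1 FPKM in either line was named, and of each partner list the 4 most abundant members and those past 2-fold could be named. 1 gene that the symbol rule matches is not reported here and was left out of every member count, sum and median. Members, lists, thresholds and this rule were chosen with earlier results of these data known. Chromosomes and gene order came from GENCODE M21 and RefSeq annotations of a later build than mm9; all 36 members matched, and 89 of 22711 genes did not. Scripts ran under Python 3.11.15 with pandas 2.3.3, numpy 2.4.6 and matplotlib 3.10.9 and were tested on simulated data. Alternatives covered the pseudocount, the filters, the scaling, single alleles, the fold, the share limits and leaving out chromosomes with uneven shares.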

Additional observations from a re-analysis of the deposited data

How the results depend on the processing

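No paired analysis was possible because each line had 1 library, and no replicate could be left out. The count of members at least 2-fold higher in PWK-Xi (2 of 6, beside 17.8% of all genes) became 3 of 6 in the B6 allele alone, beside 25.6%. It was 3 of 12 at 1 FPKM in either line, beside 18.1%, and 3 of 28 with no filter, beside 13.0%. Relative to the median of all genes it was 1 of 6, beside 14.0%. It was 0 of 6 with the PWK allele alone, beside 17.3%, and 0 of 6 at 4-fold, beside 7.05%. It was 0 of 2, beside 13.7%, without the chromosomes whose median B6 share lay over 5 points from that of the autosomes in either line. That last setting left 2 integrins and no laminin to measure. The count of lower members (0 of 6, beside 5.83% of all genes) became 1 of 12 at 1 FPKM in either line, beside 4.84%. With no filter it was 1 of 28, beside 3.48%. The median log2 difference of integrins (-0.07) was -0.087 with a pseudocount of 0.1 FPKM, -0.089 with none, -0.21 at 1 FPKM, -0.029 with no filter, -0.27 relative to the median and -0.25 in the B6 allele alone. It changed sign to 0.070 with totals rescaled to be equal and to 0.35 in the PWK allele alone. That of laminins (1.06, over 2 chains that passed the filter only through PWK-Xi) was, in the same order, 1.21, 1.23, 0.93, 0.45, 0.86, 2.09, 1.19 and 0.089.

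The median B6 share of members in B6-Xi (38.8%) was 55.7% at 5 FPKM in both lines, 35.4% for members above 0 in both lines and 46.3% without the uneven chromosomes. In PWK-Xi (52.6%) it was 43.3% at 5 FPKM and 52.9% above 0. Uneven shares in B6-Xi (4) numbered 1, 11 and 0 under these 3 settings, and 1 with limits of 20% and 80%. In PWK-Xi (3) they numbered 0, 10, 0 and 1. Members differing by 20 points between the lines (3) numbered 1, 10 and 0 under the same 3 settings, and 2 of 9 differed by 30 points. The percentages of all genes under these share settings are not given. These counts therefore show only how the member counts move and are not read as a result about the members. The causes were not tested beyond the smaller or larger number of members each setting measured (4, 20 and 3 in place of 9). Of the 12 members with at least 1 FPKM, 6 kept the sign of their log2 difference under all 6 settings that rescaled or split it (Itgb5, Itgb3, Itga11, Lamb1, Lama4 and Lama5). The sign of Itgav, Itga5 and Lamb2 changed in 1 of these, that of Itga6 and Lamc1 in 1, and that of Itgb1 in 2. Depth is unknown, so small shares and listed zeros cannot be given an error.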
